A study of Mus musculus with 12 samples.

Results

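Dual-specificity MAP kinase phosphatases are enzymes that switch off MAP kinases, the last kinases of a relay that carries antigen receptor, cytokine and stress signals to the nucleus. Each one removes phosphate from both the threonine and the tyrosine that activate its target kinase. The targets are the growth-linked kinases ERK and the stress-linked kinases JNK and p38, and most of the phosphatase genes are themselves switched on by the signal they end. In T cells these enzymes set how long activation signals last, and Dusp1 is known from many cell types as a gene induced by glucocorticoids. The family described here consists of Dusp1, Dusp2, Dusp4 and Dusp5, which act mainly in the nucleus, Dusp6, which acts on ERK in the cytoplasm, and Dusp10 and Dusp16, which act mainly on JNK and p38.

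Open chromatin at these 7 genes was measured by ATAC-seq, in which a transposase cuts accessible DNA and the resulting fragments are counted by position. Naive mouse CD4+ T cells on the C57/B6 background, originally from spleen and dLN, were cultured into Th17Hom cells, helper T cells that make IL-17, here in their homeostatic form. The 4 groups, with n = 3 each, were wild-type cells given the synthetic glucocorticoid dexamethasone (WT Dex), untreated wild-type cells (WT control), cells of GR cKO mice given dexamethasone (cKO Dex) and untreated cells of those mice (cKO control). GR is the glucocorticoid receptor, and treatment lasted 2 days. The sources used here do not give the Cre driver, the deleted part of the receptor gene or the dose. A peak belonged to a phosphatase gene when its centre lay inside the protein-coding span of that gene, or when that span was the nearest protein-coding one within 50 kb. This rule gave 187 of the 222105 deposited peaks, and 171 of the 187 passed the filter on low counts. Dusp10 had the most peaks with 42, followed by Dusp5 with 38, Dusp16 with 32, Dusp1 with 29, Dusp4 with 25, Dusp6 with 13 and Dusp2 with 8. Nearness does not show that a peak acts on that gene. In bulk ATAC-seq, more cells with an open site and a site more open in each cell cannot be told apart.

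Promoter sequences are shown for the 3 genes at which a peak changed, and for Dusp5, whose window held the most letters in searched motifs. Each window covers the 250 bases before the start in RefSeq (GRCm38.p6, the same build as mm10), read 5′ to 3′ on the strand of the gene. They lie at chr17:26508473-26508722 on the minus strand for Dusp1, chr2:127335909-127336158 on the plus strand for Dusp2, chr6:134792629-134792878 on the minus strand for Dusp16 and chr19:53528895-53529144 on the plus strand for Dusp5. Capitals mark motif matches: the cAMP response element TGACGTCA and the E-box CACGTG in Dusp1, an E-box in Dusp2, the CCAAT box read on the other strand in Dusp16, and a pair of adjoining CArG boxes, the serum response element core, in Dusp5.
Dusp1: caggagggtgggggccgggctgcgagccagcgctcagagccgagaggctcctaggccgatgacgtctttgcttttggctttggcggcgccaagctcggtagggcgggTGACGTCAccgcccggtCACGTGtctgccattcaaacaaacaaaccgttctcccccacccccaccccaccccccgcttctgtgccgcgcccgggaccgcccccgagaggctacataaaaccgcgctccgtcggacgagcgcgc
Dusp2: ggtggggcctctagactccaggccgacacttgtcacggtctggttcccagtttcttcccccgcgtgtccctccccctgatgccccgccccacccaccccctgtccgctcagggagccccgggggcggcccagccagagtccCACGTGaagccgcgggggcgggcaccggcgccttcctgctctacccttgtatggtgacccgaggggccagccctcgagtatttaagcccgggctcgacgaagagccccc
Dusp16: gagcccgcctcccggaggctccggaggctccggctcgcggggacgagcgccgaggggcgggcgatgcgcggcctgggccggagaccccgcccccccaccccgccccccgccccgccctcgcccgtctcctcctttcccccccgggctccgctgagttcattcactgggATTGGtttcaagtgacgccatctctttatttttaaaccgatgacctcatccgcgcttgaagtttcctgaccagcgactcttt
Dusp5: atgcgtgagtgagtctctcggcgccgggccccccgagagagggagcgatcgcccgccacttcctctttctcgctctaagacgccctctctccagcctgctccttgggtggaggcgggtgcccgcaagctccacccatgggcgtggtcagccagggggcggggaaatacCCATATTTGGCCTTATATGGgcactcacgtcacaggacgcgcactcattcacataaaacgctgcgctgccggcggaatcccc

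Counting back from -1, the base before the start, the Dusp1 response element sat at -143 to -136 and its E-box at -126 to -121. The Dusp2 E-box sat at -109 to -104, the Dusp16 CCAAT box at -82 to -78, and the Dusp5 CArG boxes at -82 to -73 and -72 to -63. Searched on both strands of the same 250 bases in 32851 RefSeq promoters, the full response element occurred in 1.55%, the E-box in 6.02%, CCAAT in 33.8% and the CArG box in 1.47%. The shorter response element TGACG, which overlaps the full one, occurred in 17.8% of promoters, Dusp1, Dusp5 and Dusp16 among them, and Dusp6 and Dusp10 shared CCAAT with Dusp16. Matches of TGACG outside the full element stay in lower case above. They lie at -191 to -187 in Dusp1, -70 to -66 in Dusp16 and -55 to -51 in Dusp5. The palindromic glucocorticoid response element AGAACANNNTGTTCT was in 3 of the 32851 promoters (0.00913%), and one of its arms, AGAACA, in 16.1%. Neither of these was in the windows of the 6 matched phosphatase genes, nor were the AP-1 site TGANTCA (6.75% of promoters) and the TATA box TATAAA (12.4%). A match is a description of the letters, not evidence of binding.

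At the gene starts themselves the chromatin was open in every group, and no start peak was called for Dex by edgeR. Levels are given as CPM, the read count scaled to the TMM-adjusted library size, and per kb of peak where genes are compared. Per kb, the start peaks of Dusp10 (22.7 CPM per kb), Dusp2 (22.6), Dusp1 (21.1) and Dusp6 (20.8) stood close together. Those of Dusp5 (11.8) and Dusp16 (7.89) were lower, and the peak over the lower end of the Dusp4 span, a gene whose strand was not used here, had 16.9 CPM per kb. The Dusp2 peak was 8400 bases wide, covered the whole gene, and held 66.0% of the summed level of that gene, against 12.5% for the start peak of Dusp16. Its centre lay 2.87 kb from the protein-coding gene Astl and 0.221 kb from the long noncoding RNA Gm46762. At that width the Dusp2 peak reached into both, so its level and the Dusp2 sum also hold reads over them. The centre of the Dusp10 start peak lay 1.33 kb from the protein-coding gene 1700056E22Rik, so its level may also hold reads over that gene. The start of Dusp16 was the RefSeq start used for its promoter, 134792628, which lies inside the annotated span of the gene.

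**Figure D1:**
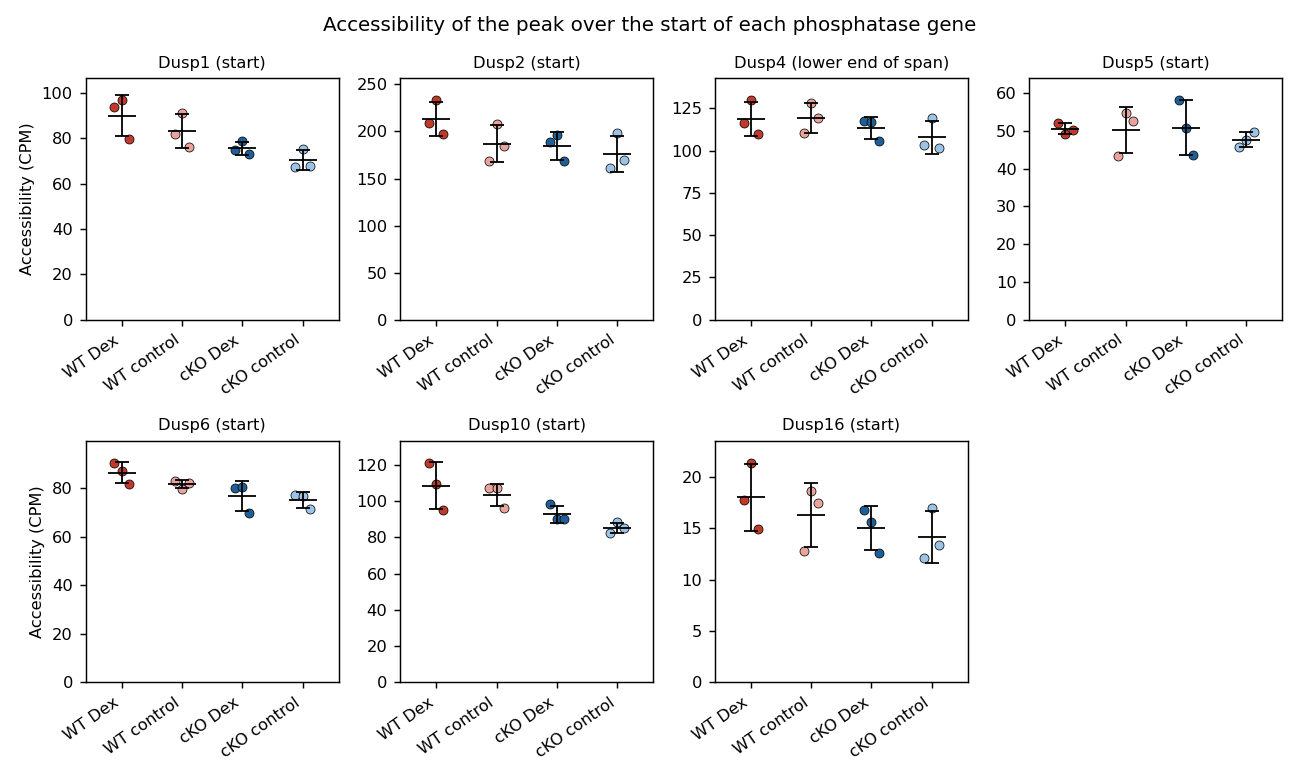
Accessibility in CPM of the peak over each gene start, with the lower end of the span for Dusp4, in the groups WT Dex, WT control, cKO Dex and cKO control. Points are libraries, bars the mean ± SD (n = 3), and the y axes start at 0; the WT Dex and WT control libraries overlap for all 7 genes, and the Dusp10 and Dusp1 means are lower in both cKO groups.

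The Dusp2 start peak, over a gene for a nuclear phosphatase of activated lymphocytes, averaged 213 ± 18.2 CPM in WT Dex and 187 ± 19.7 CPM in WT control (SD, n = 3 each), a log2 fold change of 0.19 ± 0.09 (SE) with an adjusted p of 0.585 in edgeR's quasi-likelihood test. The Dusp1 start peak averaged 90.0 ± 9.18 CPM in WT Dex and 83.2 ± 7.57 CPM in WT control, with a log2 fold change of 0.11 ± 0.10 and an adjusted p of 0.837. Those of Dusp4, Dusp5, Dusp6, Dusp10 and Dusp16 had log2 fold changes between -0.01 and 0.13 with adjusted p-values from 0.888 to 0.996. Under quantile normalisation with limma-voom, the Dusp4 one was called lower in WT Dex (log2 -0.14, adjusted p = 0.0282). Its log2 fold change ran from -0.14 to -0.01 over the 10 alternatives that kept all libraries. In cKO cells the 7 start peaks had log2 fold changes with Dex from 0.03 to 0.12 and adjusted p-values from 0.902 to 0.981.

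Away from the starts, Dex raised accessibility in WT cells at 3 peaks: one upstream of Dusp1, one upstream of Dusp2 and one inside Dusp16. They are 3 of 171 tested peaks (1.75%), all higher, where 0.534% of all 202587 tested peaks were called and 0.420% were called higher. At an unadjusted p under 0.05 there were 19 (11.1%, against 8.32% of all). Over all tested peaks of the 7 genes the median log2 fold change was 0.03, beside -0.0015 over all tested peaks, and 93 of the 171 (54.4%) were above 0, against 49.8%. All 3 WT Dex libraries were above all 3 WT control libraries at 23 of the 171 peaks (13.5%, against 6.96% of all), and below them at 12 (7.02%, against 6.90%). Under scalings that bend with peak strength the calls split differently: 4 higher and 2 lower with loess offsets, and 3 and 3 with quantile normalisation. Over all peaks the calls were 1261 higher and 872 lower with loess offsets, and 1173 and 715 with quantile normalisation.

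**Figure D2:**
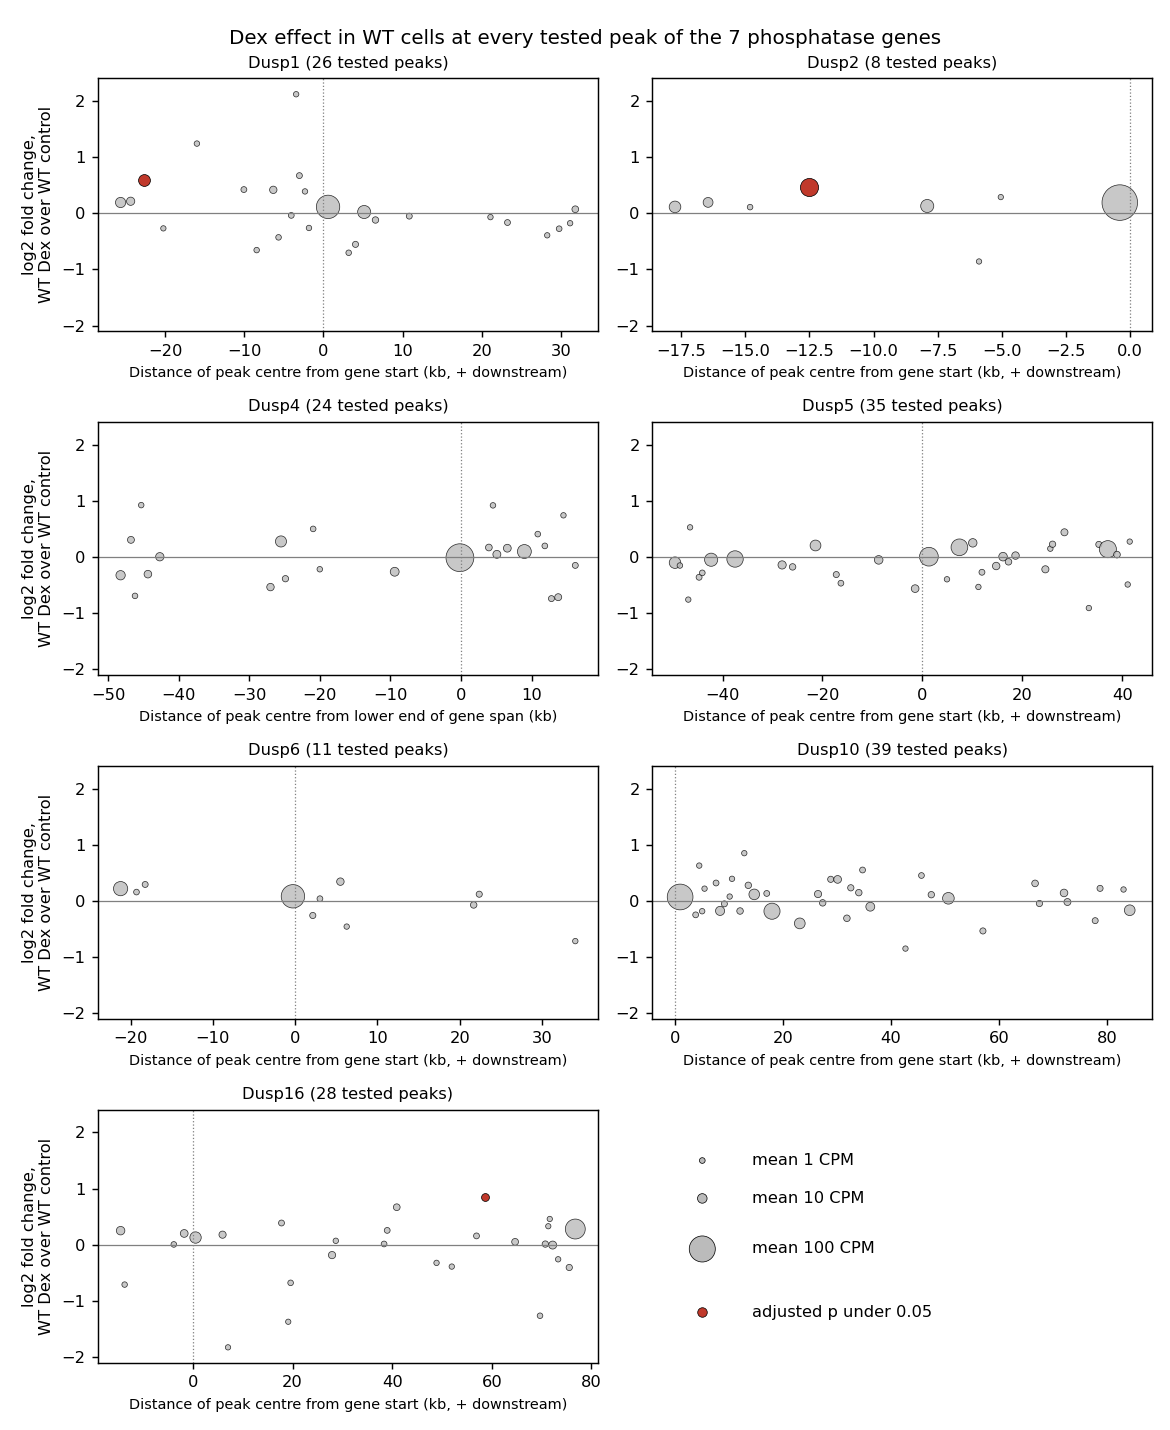
Log2 fold change of WT Dex over WT control for each tested peak of the 7 genes, by distance of the peak centre from the gene start in kb (for Dusp4, from the lower end of the span), with point area growing with mean CPM and called peaks in red. The 3 called peaks lie at -22.7 kb of Dusp1, -12.5 kb of Dusp2 and +58.6 kb of Dusp16, while the strong peaks over the starts lie close to 0.

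Among the nuclear phosphatases, the Dusp1 peak lay 22.7 kb upstream of the gene at mm10 chromosome 17, 26529925 to 26532330, between genes. The next protein-coding gene, Ergic1, was 29.6 kb away and the long noncoding RNA Gm34606 3.80 kb away. The peak had 20.7, 27.5 and 20 CPM in the WT Dex libraries and 15.9, 14.2 and 15.5 CPM in the WT control libraries. Every WT Dex library was above every WT control library, with replicate 2 the highest. The means were 22.7 ± 4.15 CPM in WT Dex and 15.2 ± 0.845 CPM in WT control, a 1.50-fold difference (log2 0.59 ± 0.13, adjusted p = 0.00713, edgeR). The call was lost without WT Dex replicate 2 (log2 0.42, adjusted p = 0.274) and without WT control replicate 2 (0.54, 0.0830) or 3 (0.60, 0.0552). Over the 12 libraries left out in turn the adjusted p ran from 0.00212 to 0.274. In cKO cells the peak had 18.6, 15.9 and 15.8 CPM with Dex and 15.2, 15.8 and 14.3 CPM without. All 3 treated libraries were the higher ones here too, though the lowest of them, at 15.794 CPM, barely passed the highest untreated one, at 15.762 CPM. The log2 fold change in cKO was 0.15 ± 0.13, with an adjusted p of 0.908. The Dex effect in WT minus that in cKO was 0.43 ± 0.18 on the log2 scale. That difference did not pass the test (unadjusted p = 0.0186, adjusted p = 0.816).

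The Dusp2 peak lay 12.5 kb upstream at chromosome 2, 127322387 to 127324892, inside the span of the long noncoding RNA Gm46762 and 15 kb from the protein-coding gene Astl. Its values were 54.0, 61.7 and 54.6 CPM in WT Dex and 41.2, 44.1 and 38.4 CPM in WT control, again without overlap. The log2 fold change was 0.46 ± 0.10 (1.38-fold, adjusted p = 0.0122, edgeR). The call was lost without WT Dex replicate 2 (0.39, adjusted p = 0.167) and without WT control replicate 1 (0.46, 0.0537) or 3 (0.41, 0.202), within a range from 0.00305 to 0.202. In cKO cells it had 49.1, 48.7 and 44.9 CPM with Dex and 34.0, 43.5 and 43.1 CPM without, so that all 3 treated libraries were again the higher ones. That difference, log2 0.24 ± 0.10, had an unadjusted p of 0.0226 and an adjusted p of 0.838, and the interaction was 0.22 ± 0.15 (adjusted p = 0.939).

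The other nuclear members, Dusp4 and Dusp5, had no called peak. Their peaks with the smallest p for Dex were both lower in WT Dex. At Dusp4 this was a weak peak past the upper end of the gene (chromosome 8, 34821019 to 34821779), with 1.95, 2.85 and 2.78 CPM in WT Dex and 4.12, 4.78 and 3.63 CPM in WT control (log2 -0.71 ± 0.22, adjusted p = 0.174). At Dusp5, whose product acts on ERK in the nucleus, it was a peak 1.46 kb before the start (chromosome 19, 53527385 to 53527981), with 4.54, 3.68 and 4.25 CPM in WT Dex and 6.10, 6.01 and 6.27 CPM in WT control (log2 -0.56 ± 0.19, adjusted p = 0.225). Neither pair of groups overlapped, but neither difference passed the test over all peaks, and the Dusp5 peak had a log2 fold change of -0.01 ± 0.18 in cKO cells.

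**Figure D3:**
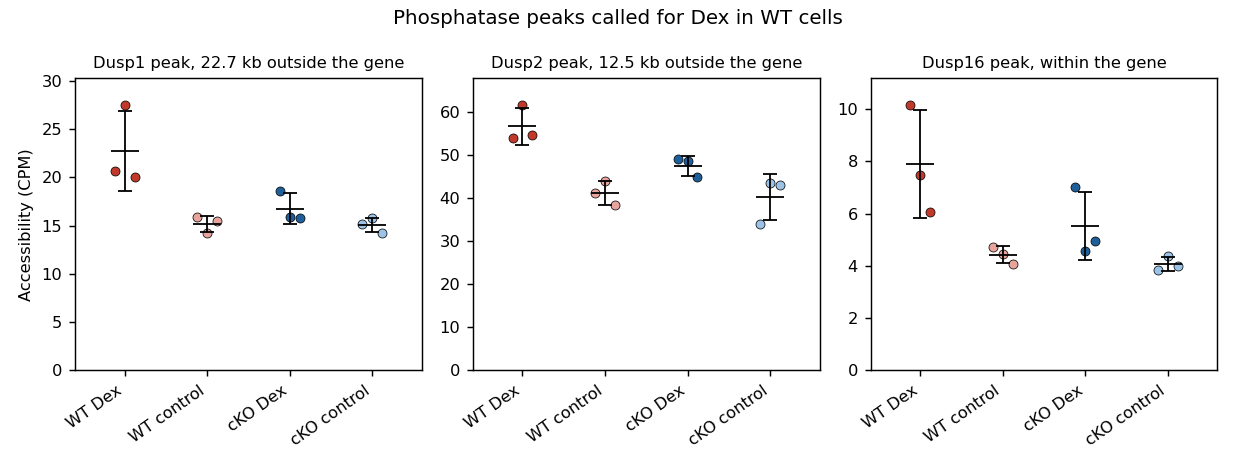
Accessibility in CPM of the 3 called peaks, near Dusp1, Dusp2 and Dusp16, in each library of the groups WT Dex, WT control, cKO Dex and cKO control, with bars for the mean ± SD (n = 3) and y axes from 0. In all 3 panels each WT Dex library lies above each WT control library and each cKO Dex library above each cKO control library, and the cKO Dex means lie between the WT Dex mean and the cKO control mean.

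Dusp6, the cytoplasmic ERK phosphatase, had no called peak either. The candidate with the smallest p lay 21.2 kb upstream (chromosome 10, 99241220 to 99242805), with 34.0, 33.4 and 28.5 CPM in WT Dex and 27.7, 27.7 and 27 CPM in WT control (log2 0.22 ± 0.11, adjusted p = 0.603). In Dex-treated cells the same peak averaged 24.5 ± 2.46 CPM in cKO and 32.0 ± 3.04 CPM in WT, a log2 difference of -0.38 ± 0.11 with an adjusted p of 0.169 in edgeR. DESeq2 called that difference (adjusted p = 0.0183). Over all peaks in Dex-treated cells, DESeq2 called 7 higher and 487 lower in cKO, where edgeR called 81 higher and 264 lower.

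Of the JNK and p38 phosphatases, Dusp16 carried the peak with the largest fold change of the 3. It lay inside the gene, 58.6 kb past the start (chromosome 6, 134733766 to 134734280), 22.8 kb from Borcs5. Its values were 10.1, 7.48 and 6.07 CPM in WT Dex and 4.73, 4.44 and 4.08 CPM in WT control, which rest on 62 to 172 reads per library. All WT Dex libraries were higher, replicate 1 most of all, and the log2 fold change was 0.84 ± 0.19 (1.79-fold, adjusted p = 0.0119, edgeR). The call was lost without WT Dex replicate 1 (0.63, adjusted p = 0.345) and without WT control replicate 2 (0.85, 0.0697) or 3 (0.79, 0.134), within a range from 0.00346 to 0.345. It also stood at an adjusted p of 0.0503 (log2 0.70) when the share of reads in the strongest 10% of peaks entered the fit. Over the alternatives that kept every library it ran from 0.00450 to 0.0503. In cKO cells the peak had 7.0, 4.57 and 4.97 CPM with Dex and 3.84, 4.38 and 4.0 CPM without, again with no overlap (log2 0.44 ± 0.19, unadjusted p = 0.0272, adjusted p = 0.838), and the interaction was 0.40 ± 0.27 (adjusted p = 0.939).

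The strongest Dusp16 peak was at the far end of the gene, 76.8 kb from the start and 4.69 kb from Borcs5 (chromosome 6, 134715039 to 134716702), at 34.2 CPM per kb, above every start peak of the family. It had 63.4, 66.5 and 60.3 CPM in WT Dex and 51.0, 51.7 and 53.8 CPM in WT control, without overlap (log2 0.28 ± 0.10, adjusted p = 0.262 in edgeR, called by DESeq2 alone of the alternatives). At Dusp10 the peak with the smallest p was inside the gene, 23.1 kb past the start (chromosome 1, 184057103 to 184057874). It had 12.2, 10.6 and 12.2 CPM in WT Dex and 15.3, 15.1 and 15.7 CPM in WT control, with every treated library lower (log2 -0.40 ± 0.14, adjusted p = 0.259). In cKO cells it averaged 14.8 ± 1.54 CPM with Dex and 13.6 ± 2.89 CPM without, and the interaction was -0.52 ± 0.19 (unadjusted p = 0.00908, adjusted p = 0.743).

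**Figure D4:**
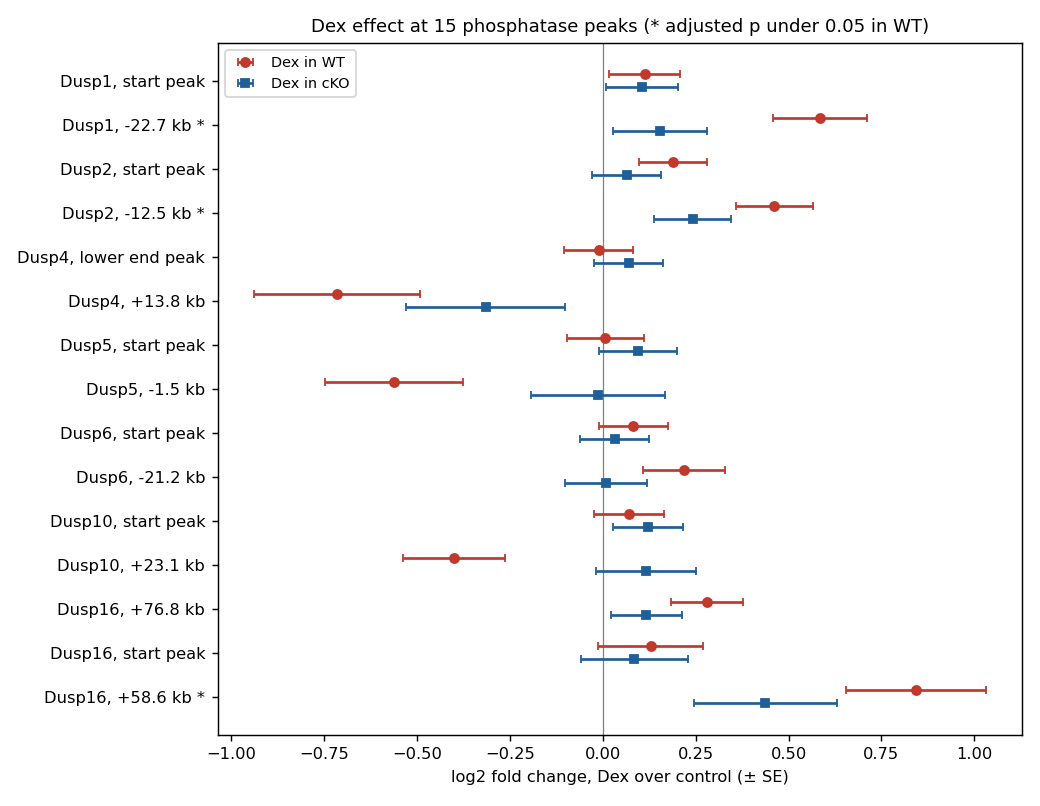
Log2 fold change with Dex, ± SE, at 15 peaks of the 7 genes, in WT (red circles) above cKO (blue squares), where asterisks mark the 3 peaks called in WT. The called peaks lie at 0.59, 0.46 and 0.84 in WT and at 0.15, 0.24 and 0.44 in cKO, and the start peaks lie between -0.01 and 0.19 in both genotypes.

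In cells of GR cKO mice, no peak of the family was called for Dex by edgeR, DESeq2 or limma-voom (0 of 171, where 0.00296% of all peaks were called by edgeR), and 8 had an unadjusted p under 0.05 (4.68%, against 5.84% of all). The background depends on 1 library: over all peaks the 6 calls, all higher, became 314 (41 higher, 273 lower) without cKO Dex replicate 3, while the family still had 0. Over gene sums the 1 call became 293, with 0 in the family. The median log2 fold change was 0.07 over the family and -0.0043 over all peaks, and 105 of 171 (61.4%) were above 0, against 49.5%. All 3 cKO Dex libraries lay above all 3 cKO control libraries at 18 peaks (10.5%, against 5.28%) and below them at 4 (2.34%, against 5.50%). The interaction was called at none of the 171 peaks by any of the 3 tools (background 0.0276%, 56 peaks, or 177 without cKO Dex replicate 3), with 7 at an unadjusted p under 0.05 (4.09%, against 5.65%). A difference between the Dex effects of WT and cKO cells was not detectable at this spread between libraries, which does not show that they were alike.

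Cells of the cKO and WT genotypes were also compared directly. No family peak was called in Dex-treated cells (0 of 171, background 0.170%) or in control cells (0 of 171, background 0.0104%) by edgeR or limma-voom. At an unadjusted p under 0.05 there were 15 peaks (8.77%, against 8.35%) in Dex-treated cells and 11 (6.43%, against 7.69%) in control cells. The lowest adjusted p in Dex-treated cells, 0.152, belonged to the Dusp1 upstream peak, which averaged 16.8 ± 1.58 CPM in cKO Dex and 22.7 ± 4.15 CPM in WT Dex (log2 -0.44 ± 0.12). The Dusp10 start peak averaged 85.3 ± 2.81 CPM in cKO control and 103 ± 6.26 CPM in WT control (log2 -0.28 ± 0.09, unadjusted p = 0.00457, adjusted p = 0.462 in edgeR), and DESeq2 called it (adjusted p = 0.0437). Over all peaks in control cells, DESeq2 called 0 higher and 493 lower in cKO, where edgeR called 2 higher and 19 lower. The Dusp1 start peak averaged 70.3 ± 4.42 CPM in cKO control and 83.2 ± 7.57 CPM in WT control (log2 -0.24 ± 0.10, adjusted p = 0.548). Beside these lower start peaks, the strongest 10% of peaks held 60.3% ± 1.88 of reads in cKO Dex and 62.6% ± 1.52 in WT Dex, and 58.9% ± 1.27 in cKO control and 61.2% ± 0.771 in WT control. Its part in the differences at start peaks was not tested.

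Summing the reads of all peaks of a gene gave 1 value per phosphatase. Dusp2 rose with Dex in WT cells, at 318, 350 and 326 CPM in WT Dex and 279.6, 311 and 287 CPM in WT control (log2 0.18 ± 0.05, adjusted p = 0.0489, edgeR over 17353 genes). The lowest WT Dex library was above the highest WT control library by a small margin. That call makes 1 of 7 genes, where 2.65% of all genes were called and 1.67% were called higher. It was lost without any 1 of the WT Dex libraries, WT control replicates 1 or 3, cKO Dex replicates 1 or 2, or cKO control replicate 3, with adjusted p-values from 0.0571 to 0.314 in those fits and from 0.0109 over all 12. Dusp16 had 139.3, 146 and 142 CPM in WT Dex and 128, 123 and 133 CPM in WT control (log2 0.16 ± 0.04, adjusted p = 0.0537), and Dusp1 averaged 189 ± 9.66 CPM in WT Dex and 176 ± 8.34 CPM in WT control (log2 0.11 ± 0.04, adjusted p = 0.234). For the other 4 genes the adjusted p was at least 0.608.

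Per kb of covered peak, the summed level was highest at Dusp2 (18.4 CPM per kb), then Dusp6 (13.5), Dusp10 (12.3), Dusp5 (11.5), Dusp4 (10.5), Dusp1 (9.79) and Dusp16 (8.86), as a description of all 12 libraries. In cKO cells no sum was called (background 0.00576%), with Dusp2 at 309 ± 6.67 CPM in cKO Dex and 301 ± 22.8 CPM in cKO control (log2 0.04 ± 0.05, adjusted p = 0.869). The interaction for Dusp2 was 0.14 ± 0.07 (adjusted p = 0.663, background 0.219%). Between genotypes in Dex-treated cells, Dusp1 averaged 171 ± 4.10 CPM in cKO Dex and 189 ± 9.66 CPM in WT Dex (log2 -0.14 ± 0.04, adjusted p = 0.0737). Dusp5 went the other way in that comparison, with 332 ± 19.6 CPM in cKO Dex and 304 ± 1.39 CPM in WT Dex (log2 0.13 ± 0.04, adjusted p = 0.0793, background 2.30%). In control cells the smallest adjusted p between genotypes was 0.270, at Dusp16 (background 0.213%).

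**Figure D5:**
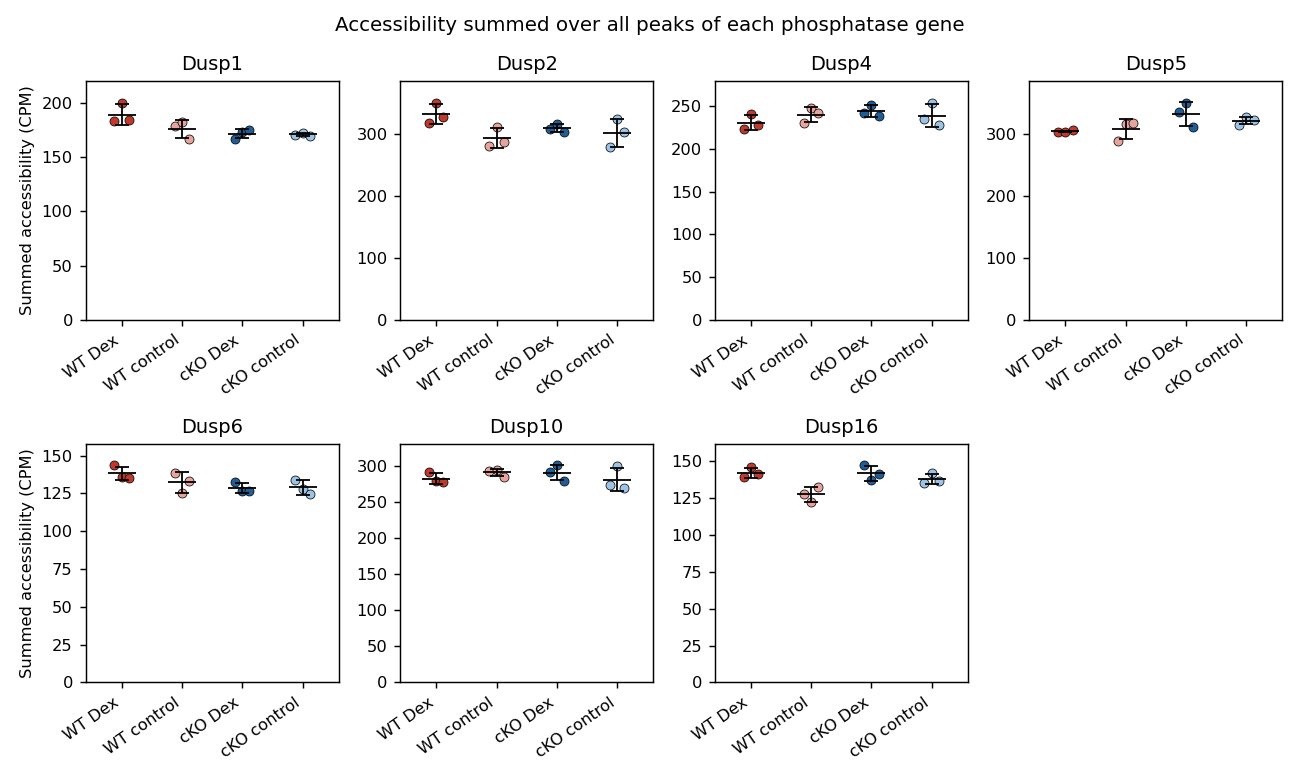
Summed accessibility in CPM of all peaks of each phosphatase gene in the groups WT Dex, WT control, cKO Dex and cKO control. Points are libraries and bars the mean ± SD (n = 3), with y axes from 0; the groups of a gene differ little beside their level, and Dusp2 alone was called, at 331 ± 16.6 CPM in WT Dex and 292 ± 16.2 CPM in WT control.

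The rest of the MAP kinase relay was described from a list of 69 other genes, of which 68 had a tested peak, 1166 peaks in all. With Dex in WT cells a higher peak was called at 8 of the 68 genes and a lower one at 1. These counts became 3 and 0 without WT Dex replicate 1 or WT control replicate 3, and 5 and 0 without WT control replicate 1 or 2. Counted by peak, 10 of 1166 (0.858%) were called higher, against 0.420% of all peaks. Over all genes with a tested peak, 3.12% had a higher and 1.08% a lower called peak. Among the phosphatases a higher peak was called at 3 of 7, which is 3 of 171 peaks (1.75%). Shares by gene are not like for like, because a gene with more peaks has more chances of a call. The deposited peaks numbered 187 for the 7 phosphatases, 1291 for the 69 listed genes and 198823 for all 17499 genes with a peak. The median log2 fold change over the list was 0.03. By role, a higher peak occurred in 1 of 9 MAP kinases, 0 of 7 MAP kinase kinases, 2 of 11 kinases that activate those (the MAP3K tier), 2 of 16 other phosphatases, 2 of 8 feedback inhibitors and 1 of 17 targets, and the lower peak was at a target.

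Mapk14, which encodes p38 alpha, had a peak at 5.56 ± 0.990 CPM in WT Dex and 2.76 ± 0.700 CPM in WT control (log2 0.98 ± 0.22, adjusted p = 0.0134). Of the MAP3K tier, a peak of Map3k8, which feeds the ERK branch, averaged 36.0 ± 4.97 CPM in WT Dex and 23.7 ± 2.01 CPM in WT control (0.60 ± 0.12, adjusted p = 0.00190). A peak 21.6 kb from Map3k7, the kinase TAK1, rose by 0.46 ± 0.11 (adjusted p = 0.0402). The atypical phosphatases Dusp22 and Dusp14 also had a higher peak each. The one 21.3 kb from Dusp22 averaged 7.92 ± 0.964 CPM in WT Dex and 3.63 ± 0.420 CPM in WT control (1.14 ± 0.19, adjusted p = 0.000164). The one inside Dusp14 averaged 11.3 ± 0.413 CPM in WT Dex and 6.68 ± 1.04 CPM in WT control (0.75 ± 0.16, adjusted p = 0.00446).

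Of the inhibitors upstream of ERK, Rasa2, a Ras GTPase activator, had a pair of higher peaks (0.69 ± 0.14, adjusted p = 0.00305, and 0.46 ± 0.10, adjusted p = 0.00887) and Spred2 one (0.62 ± 0.15, adjusted p = 0.0211). Rps6ka5, the kinase MSK1 downstream of ERK and p38, likewise had a pair (0.62 ± 0.13, adjusted p = 0.00749, and 1.13 ± 0.25, adjusted p = 0.00826). The lower peak was at Jun, the AP-1 subunit that JNK phosphorylates, with 1.62 ± 0.257 CPM in WT Dex and 3.48 ± 0.337 CPM in WT control (-1.09 ± 0.27, adjusted p = 0.0308). That call was lost without any 1 of the 6 WT libraries (adjusted p from 0.0661 to 0.225). The cKO groups stood at 1.77 ± 0.324 CPM with Dex and 1.90 ± 0.213 CPM without. Of the peaks called higher, the Dusp22 one kept its call with each of the 12 libraries left out. The stronger Rasa2 change was lost without WT Dex replicate 1, the weaker one without WT Dex replicates 1 or 2 or WT control replicates 2 or 3, and Spred2 without WT Dex replicate 1 or any 1 WT control library. Mapk14 was lost without WT Dex replicate 1 or WT control replicates 1 or 2, and Map3k8 without WT Dex replicate 2 or WT control replicate 3. Dusp14 and the first Rps6ka5 peak were lost without WT Dex replicate 1 or WT control replicate 3, and the second Rps6ka5 peak without WT Dex replicate 2 or WT control replicate 3. Map3k7 was lost in 9 of the 12 fits, among them all 6 without a WT library (highest adjusted p 0.271). No gene of the list had a call for Dex in cKO cells, for the interaction or between genotypes in control cells. A peak of Rasa2 was lower in cKO Dex, at 15.8 ± 2.38 CPM, than in WT Dex, at 24.2 ± 4.04 CPM (-0.61 ± 0.13, adjusted p = 0.00962), a call lost without WT Dex replicates 1 or 2 or cKO Dex replicates 1 or 3 (highest adjusted p 0.209).

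Peaks of other genes that followed the Dusp1 upstream peak most closely were sought by Pearson's r of log2(CPM + 0.5) over the 12 libraries, as a description. They were peaks of Laptm5 (r = 0.970), Nuak2 (0.946), Gphn (0.942), Gpr107 (0.941) and Lef1 (0.937), the highest of 105112 peaks compared, and the libraries share depth and composition. The reach of the assignment rule was checked at its edge: the outermost family peak, 49.5 kb from Dusp5, had 14.9 CPM in WT Dex and 15.9 CPM in WT control. The first peak beyond, 51.2 kb from Dusp4, had 95.9 CPM in WT Dex and 92.3 CPM in WT control.

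The libraries held 12988437 to 25081591 reads in peaks. Markers of the labelled cell type are given as a description: Cd3e, Cd3g, Cd4 and Cd28 had peaks, and Trac had none assigned. Each peak of the joint set was counted in every library, and markers of other cell types had peaks as well. Having a peak therefore cannot check cell identity. The Th17 markers Il17a, Il17f, Il23r and Ccr6 also had peaks. Those of Il17a summed on average to 131 CPM in WT Dex, 138 in WT control, 143 in cKO Dex and 148 in cKO control. In the same order, Il17f had 112, 117, 125 and 123 CPM, Il23r 135, 123, 138 and 127, and Ccr6 178, 179, 190 and 190. With Dex, Il17a was thus lower and Il23r higher in both genotypes. Of these lists, Cd28 had 1 higher called peak of 43 tested with Dex in WT, and Il23r 1 lower of 30 tested. The Il23r sum was nevertheless higher in WT Dex than in WT control. That Il23r peak was also called higher in cKO Dex than in WT Dex (log2 0.82 ± 0.15, adjusted p = 0.00178, edgeR). The 4 CD8 T and NK markers summed to 121 to 127 CPM in WT Dex and 132 to 138 in WT control, without overlap, and to 122 to 129.96 in cKO Dex and 119 to 129 in cKO control. Most of that sum was Klrb1c, on average 85.3 CPM in WT Dex and 92.0 in WT control. Cd8a had 6.30 and 7.16 CPM in these groups, Cd8b1 29.8 and 30.8, and Ncr1 2.51 and 3.64. The 4 B cell markers summed to 35.3 to 45.2 CPM in WT Dex, 43.4 to 49.9 in WT control, 44.1 to 49.7 in cKO Dex and 49.7 to 61.3 in cKO control. The 4 myeloid ones summed to 118 to 130.5 CPM in WT Dex, 115 to 133 in WT control, 122 to 126 in cKO Dex and 136 to 140.2 in cKO control. Most of the myeloid sum was Itgam, on average 101 CPM in WT Dex, 98.2 in WT control, 96.7 in cKO Dex and 103 in cKO control. None of the markers with a peak was at 0, and no gene of the B cell, CD8 T and NK or myeloid lists had a called peak for Dex in WT. Their part in the results was not tested.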

How the data were processed

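The authors deposited ATAC-seq counts, whole numbers of reads in each peak of a joint set, not normalised per the file headers. The submitters' processing notes name featureCounts 2.1.1, Genrich 0.6.1, Bowtie2 2.3.5, Trimmomatic 0.39, SAMtools 1.3, Picard 2.18.27 and deepTools 3.5.6 with the build mm10. What each tool did, any shift for the transposase and the pooling of samples in peak calling are not known from them. Per the labels' protocols, 6000 cells were sorted per library and amplified by 16 PCR cycles, whose copies are not independent molecules. No label ties the 3 samples of a group to separate animals or cultures, so the spread behind each p-value may be technical. Replicates differed beyond sampling noise (chi-square per degree of freedom 2.04 to 3.72).

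The filterByExpr step (minimum count 10, minimum total 15) kept 202587 peaks. TMM-scaled counts of all 12 libraries entered edgeR 4.0.16 (R 4.3.3), with its robust quasi-likelihood F-test, 1 coefficient per group and 8 residual degrees of freedom. Tests were two-sided, with Benjamini-Hochberg adjustment over all tested peaks, and called means an adjusted p under 0.05. The SE is the size of the log2 fold change over the square root of F. Counts summed per gene were tested likewise, and the steps were tested on simulated data. The alternatives, given below, include DESeq2 1.42.0 and limma 3.58.1. The members and lists were chosen with earlier results of these data known. Named peaks were, per gene, the strongest, the one with the smallest p for Dex in WT and any called one, beside the pathway genes with a called peak and the 5 peaks of other genes most like the leading one; start peaks were added. Gene spans came from RefSeq GRCm38.p6. One marker gene is not reported here.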

Additional observations from a re-analysis of the deposited data

How the results depend on the processing

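Dex calls in WT cells moved with scaling: the 3 family peaks became 6 under loess offsets and under quantile normalisation, and 5 with the share of reads in the strongest 10% of peaks as a covariate (3 higher, 2 lower), and 0 to 3 with each library left out in turn, 0 without WT control replicate 3. The 3 peaks themselves were called under every alternative that kept all libraries and the 50 kb reach, except Dusp16 with the covariate, and a 20 kb reach left 2. Over all peaks, 851 higher and 230 lower calls became 1032 and 725 with total counts and 1070 and 1174 with the covariate. The 1081 calls over all peaks became 2133 with loess offsets, 1888 with quantile normalisation, 1298 with DESeq2 and 2244 with the covariate. With a library left out they became 507 to 1435, 507 without WT Dex replicate 1. For gene sums with Dex in WT, the 1 call became 0 with DESeq2's size factors or no filter, 2 with quantile normalisation, DESeq2, only the groups compared or the covariate, and 0 to 2 with a library left out. Over all genes the 459 called sums became 453 with DESeq2's size factors and 420 with no filter. They became 599 with quantile normalisation, 557 with DESeq2, 627 with only the groups compared and 742 with the covariate. Between genotypes in Dex-treated cells, 0 family peaks became 1 with DESeq2 (Dusp6, lower in cKO) and 1 with the covariate (Dusp4, higher in cKO). Over all peaks the 345 calls became 494 with DESeq2 and 1797 with the covariate. The 0 family sums became 1, lower in cKO, with total counts, loess offsets or DESeq2. With quantile normalisation 1 was higher and 1 lower, and with the covariate 2 were higher. Over all genes the 399 called sums became 459 with total counts, 566 with loess offsets, 536 with DESeq2, 624 with quantile normalisation and 1067 with the covariate. Family sums were 0 to 1 with a library left out (1, higher, without cKO Dex replicate 3). In control cells DESeq2 gave 1 (Dusp10, lower in cKO), where its calls over all peaks were 493, against 21 with edgeR. The 9 genes of the MAP kinase list became 16 with loess offsets, 14 with quantile normalisation, DESeq2 or the covariate, and 3 to 13 with a library left out, 3 without WT Dex replicate 1 or WT control replicate 3. Loess offsets, quantile normalisation, DESeq2 and the covariate also raised the calls over all peaks, as given above. Dex in cKO and the interaction gave 0 family peaks throughout. The cause of these shifts was not tested. With the replicate number as a block, family peaks with Dex in WT stayed 3 with the same peaks, sums became 2, genotype in Dex-treated cells 2 peaks (Dusp1, Dusp6) and 2 sums, and the list 14. Over all peaks the block gave 1747 calls, against 1081 without it. Between genotypes in Dex-treated cells it gave 1017 peaks, against 345. Called sums over all genes became 727 with Dex in WT, against 459, and 790 between genotypes in Dex-treated cells, against 399. Whether the numbers pair the samples is not settled by these values. Of 18 same-numbered pairs, 3 had deviations correlated above 0.1 (r from -0.188 to 0.258). With other numbers it was 4 of 36 (r from -0.210 to 0.245).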

Other observations

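A weak Dusp1 peak 3.45 kb before the start, chosen after its values were seen, had 0.945, 1.34 and 1.08 CPM in WT Dex and 0.0763, 0.394 and 0.247 CPM in WT control, which is 1 to 24 reads per library. Its log2 fold change was 2.12 ± 0.60 (adjusted p = 0.101, edgeR), against 0.63 ± 0.62 in cKO cells. It was called in 3 of the 10 alternatives that kept all libraries.

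Inside Dusp10, likewise chosen after their values were seen, a pair of neighbouring peaks 18.0 and 23.1 kb past the start were called lower with Dex in WT under 3 and 4 of those 10 alternatives. The first averaged 33.9 ± 2.15 CPM in WT Dex and 38.5 ± 3.81 CPM in WT control (log2 -0.18 ± 0.11, adjusted p = 0.714, edgeR), with log2 fold changes from -0.32 to -0.18 over the 10.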
